A study of Rattus norvegicus with 38 samples.

Results

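The effect of 2 extracts given together, EF and PF, was followed in the livers of rats that had been injected with lipopolysaccharide (LPS), the component of the gram-negative bacterial outer membrane that triggers inflammation. The comparison set 4 livers of rats given LPS, EF and PF (called LPS_EF_PF, replicates 1, 3, 4 and 6) against 5 livers of rats given LPS and no extract (called LPS, replicates 1 to 5). These 9 RNA-seq libraries were picked by their treatment labels from the 38 libraries of the series. All rats were Sprague-Dawley, an outbred laboratory strain, and livers were taken on day 28. EF and PF were each given into the stomach at 2.5 g/kg, and LPS was injected into the peritoneum. Neither the LPS dose, nor the interval between LPS and tissue collection, nor the composition of EF and PF is stated in the labels. A further 3 groups served as reference: control (no LPS and no extract, n = 5), EF_PF (both extracts and no LPS, n = 5) and LPS_EF (LPS and EF alone, n = 5). PF was given only together with EF, so the effect of PF by itself was not tested. The samples are described as biological replicates, and all of them carry the same batch label.

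In the liver, LPS sets off an acute-phase response, in which hepatocytes secrete large amounts of defence proteins and lower the expression of many drug-metabolising enzymes. Drug-metabolising cytochromes P450 are controlled by ligand-activated receptors. The aryl hydrocarbon receptor drives Cyp1a1 and Cyp1a2, and the receptors CAR and PXR drive Cyp2b and Cyp3a genes. Cholesterol synthesis is controlled by the transcription factor SREBP2, encoded by Srebf2, which switches on nearly every enzyme of the pathway when cell cholesterol is low.

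Library totals ran from 23482464 to 27121056 counted read pairs in LPS and from 23371592 to 35835012 in LPS_EF_PF. Although the cell type is labelled hepatocyte, the protocols describe whole liver tissue and no isolation of cells. The defining hepatocyte markers were abundant in every library, with Alb, the gene of serum albumin, between 63186 and 90252 CPM (read pairs scaled to the size of the library) in LPS and between 79829 and 87442 in LPS_EF_PF. Markers of other liver cells were present as well. The summed level of 7 Kupffer cell and macrophage markers was 390 to 528 CPM in LPS and 574 to 646 in LPS_EF_PF, with no overlap between the groups. Each of the 7 markers overlapped when taken singly, such as Marco at 81.2 to 217 and 136 to 226 CPM. The summed markers of hepatocytes, endothelial cells, stellate cells, bile duct cells, neutrophils, and T and B cells all overlapped. One library stood apart. LPS 3 held 2140 CPM of 20 exocrine pancreas markers, against 5.74 to 14.9 in the other 8 libraries, and 584 CPM of 22 skeletal muscle markers, against 6.04 to 10.3. Pancreatic Cel, a secreted lipase, was at 273 CPM in LPS 3 and no more than 0.161 CPM in the others, and muscle Ckm, Mb and Myl1 were at 0 in all 4 LPS_EF_PF libraries. Red blood cell markers varied in both groups, from 323 to 2177 CPM in LPS and from 644 to 3282 CPM in LPS_EF_PF. Over the 5 and 4 libraries, an exact two-sided permutation test of the summed level gave p = 0.968 for muscle, p = 1 for pancreas, p = 0.127 for red blood cells and p = 0.81 for intestine, kidney and fat markers (4 lists, adjusted p from 0.508 to 1, smallest possible p = 0.0159). The muscle and pancreas differences (−114 and −423 CPM) rest on LPS 3 alone. The test cannot judge a difference made by 1 library, so no conclusion is drawn from those p-values. Without LPS 3 the 4 differences had p between 0.143 and 0.2 in the same test. Each result that rests on LPS 3 is given with and without it.

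**Figure D1:**
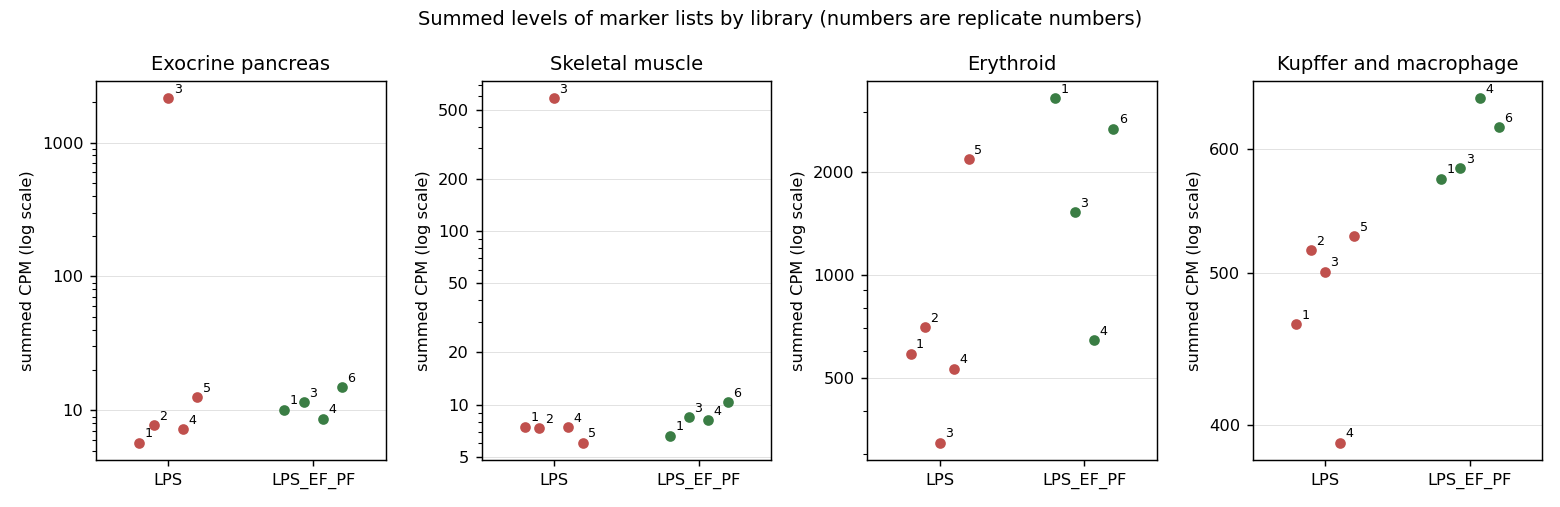
Summed CPM of 4 marker lists (log axis) in each LPS and LPS_EF_PF library, with the replicate number beside each point. LPS 3 lies far above the other 8 libraries for the pancreas (2140 CPM) and muscle lists (584 CPM). The Kupffer cell and macrophage sums of the 2 groups do not overlap, though each marker in the sum does.

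The combination changed few genes beyond the spread between livers. Of 14786 genes tested, 6 (0.0406%) differed between LPS_EF_PF and LPS at an adjusted p under 0.05 in edgeR's quasi-likelihood test, 4 higher (0.0271%) and 2 lower (0.0135%). The higher ones were Cyp1a1, Cyp1a2, Cyp8b1 and the uncharacterised LOC102551973. The lower ones were Cyp2c11 and Hdgf. In bulk liver, a lower level cannot be told apart from fewer cells of the type that makes the RNA. At an unadjusted p under 0.05, 891 genes (6.03%) passed, 362 higher (2.45%) and 529 lower (3.58%). The groups did not overlap for 236 genes that were higher (1.6%) and 302 that were lower (2.04%). Over all genes the median log2 fold change was −0.0052. For comparison, the same 2 extracts without LPS, EF_PF against control, gave 92 called genes (0.622%) in the same fit. Counts of calls depend on the number of livers and the spread between them, so they do not compare the sizes of the effects. Without LPS 3 the count rose from 6 to 14 of 14738 genes, 7 higher (0.0475%) and 7 lower (0.0475%), among them all 6.

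**Figure D2:**
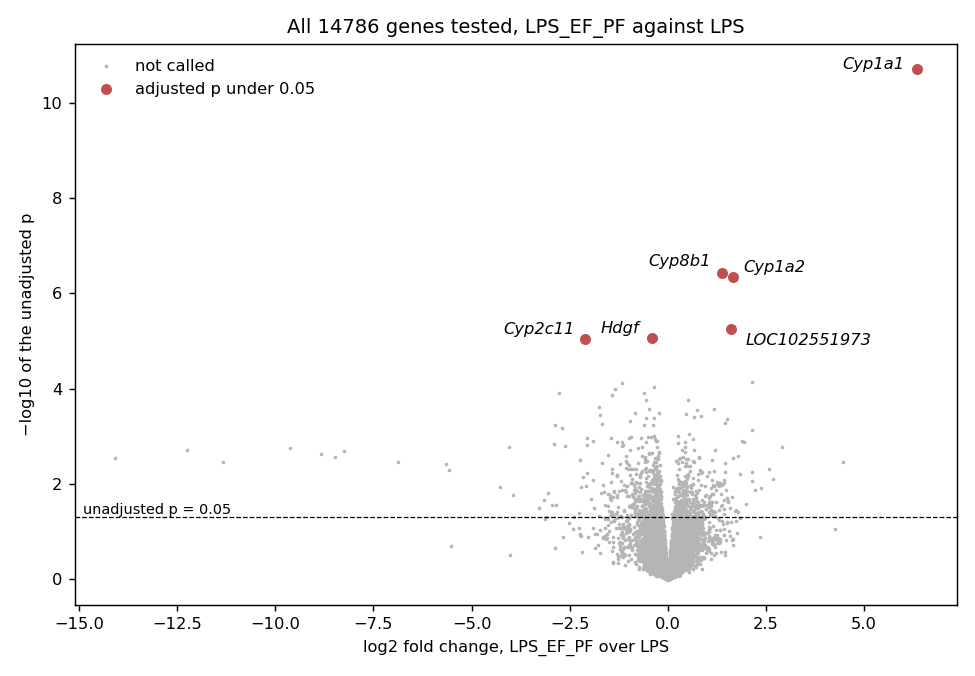
Log2 fold change of LPS_EF_PF over LPS (x axis) against −log10 of the unadjusted p (y axis) for the 14786 genes tested. The 6 called genes are named, with Cyp1a1 at a log2 fold change of 6.36. Pancreas markers reach −14.08 and muscle markers −5.57 on the left, through their levels in LPS 3.

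The largest change among called genes was in Cyp1a1, a cytochrome P450 that oxidises polycyclic aromatic compounds and is the standard readout of the aryl hydrocarbon receptor (rn6, chr8:62472087-62478122, plus strand). Its level was 0.317, 0.339, 0.629, 1.13 and 0.591 CPM in LPS 1 to 5, and 39.5, 41.1, 39.1 and 78.1 CPM in LPS_EF_PF 1, 3, 4 and 6. The groups lay far apart, with LPS_EF_PF 6 above the other 3 treated livers. Cyp1a1 rose 82.3-fold by the group means, from 0.601 ± 0.328 (SD, n = 5) to 49.5 ± 19.1 CPM (SD, n = 4), on 78 and 6117 read pairs. Its log2 fold change was 6.36 ± 0.64 (SE, adjusted p = 2.94e-07). Without LPS the same extracts gave 127 ± 67.2 CPM against 0.942 ± 0.596 in control (7.09 ± 0.63, adjusted p = 1.22e-08). The difference between the 2 arms was −0.73 ± 0.89 (adjusted p = 0.988), so the test of the interaction did not separate them.

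Cyp1a2, its neighbour and the main caffeine-oxidising P450 of liver (chr8:62451360-62458244, minus strand, 13842 bases from Cyp1a1), rose as well. Its level was 508, 426, 316, 328 and 424 CPM in LPS 1 to 5 and 1155, 1174, 1169 and 1532 CPM in the LPS_EF_PF livers. Every treated liver had more than 2 times the level of the highest LPS liver. The log2 fold change was 1.65 ± 0.26 (adjusted p = 0.00227). In EF_PF the level was higher still, at 2584 ± 529 CPM against 374 ± 67.6 in control, and the interaction was −1.14 ± 0.36 (adjusted p = 0.6). The 250 bases before the start of Cyp1a2 are shown because this gene led the response together with Cyp1a1 (RefSeq, GRCr8, chr8:66978150-66978399, minus strand, read along the gene, with the TATAAA box in capitals).
Cyp1a2: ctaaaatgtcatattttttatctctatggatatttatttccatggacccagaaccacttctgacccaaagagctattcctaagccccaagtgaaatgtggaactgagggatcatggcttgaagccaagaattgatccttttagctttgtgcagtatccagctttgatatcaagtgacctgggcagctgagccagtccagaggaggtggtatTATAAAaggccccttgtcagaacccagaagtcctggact
TATAAA, on either strand, occurs in 12.9% of the 33469 rat promoters of the same length. The core of the aryl hydrocarbon receptor's binding motif, GCGTG, occurs in 25.9% of them on either strand and has 0 copies in this window, which says nothing about sites further away.

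The other measured genes of the aryl hydrocarbon receptor list did not pass. Of its 11 members, 9 were tested, 2 were called higher and none lower (all genes: 0.0271% higher), and the median log2 fold change was 0.24. Nqo1, a quinone reductase, was at 60.5 ± 28.2 CPM in LPS and 83.1 ± 15.8 in LPS_EF_PF (0.46 ± 0.33, adjusted p = 0.896). Tiparp, a feedback inhibitor of the receptor, was at 16.5 ± 2.87 and 13.2 ± 1.14 CPM (−0.32 ± 0.12, adjusted p = 0.634). The receptor gene Ahr was at 45.8 and 48.9 CPM, and Cyp1b1 at 1.38 and 1.7 CPM. Ahrr and Aldh3a1 were too low to be tested, at 0.178 CPM or less in both groups.

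**Figure D3:**
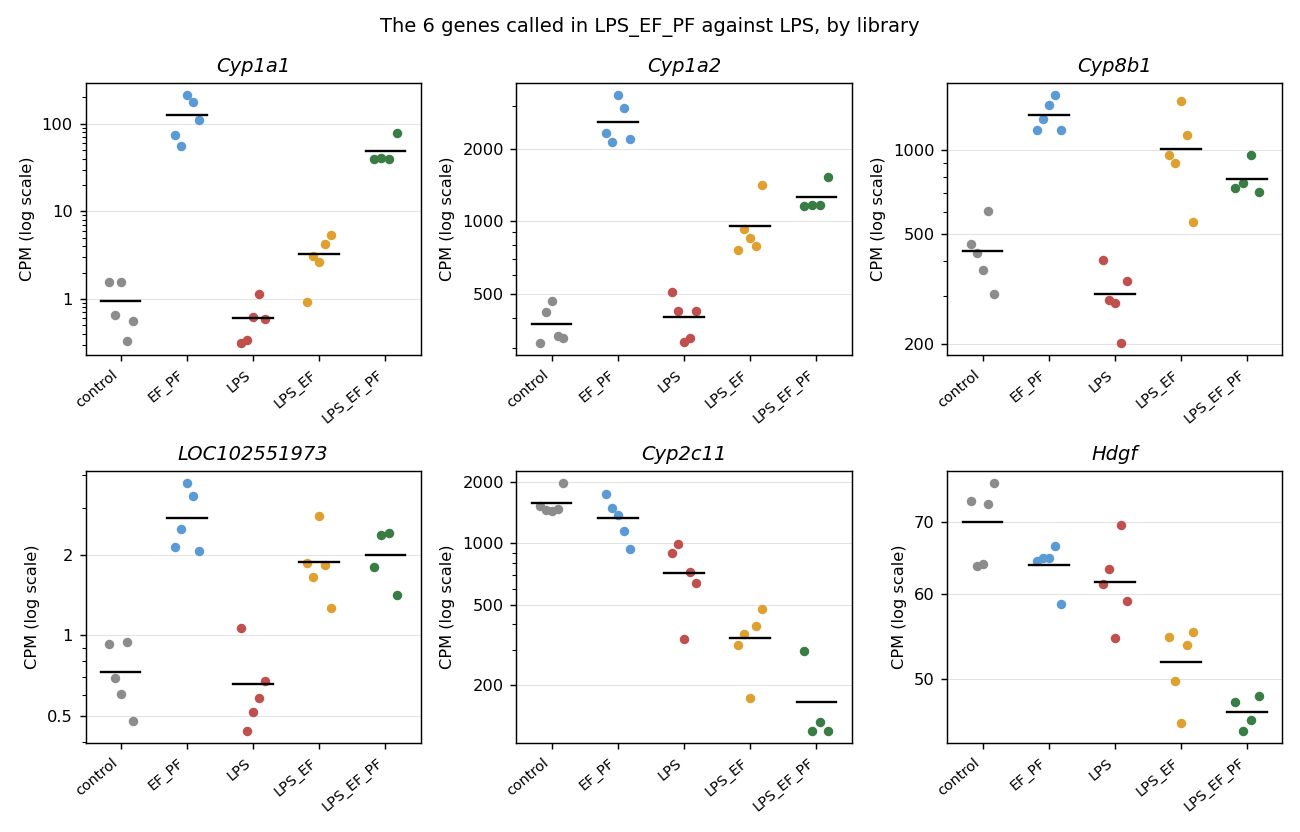
CPM (log axis) of the 6 genes called in LPS_EF_PF against LPS, for each library of 5 groups, with the group mean as a bar. Cyp1a1 is high in EF_PF and LPS_EF_PF and between 0.933 and 5.35 CPM in LPS_EF, whereas Cyp8b1 and LOC102551973 are raised in all 3 extract groups.

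In bile acid synthesis, the gene of 1 step was called. Cyp8b1, the sterol 12-alpha-hydroxylase that directs synthesis towards cholic acid (chr8:130548418-130550388, minus strand), had 403, 288, 281, 203 and 339 CPM in LPS 1 to 5 and 732, 760, 962 and 709 CPM in the LPS_EF_PF livers. All 4 treated livers were above all 5 LPS livers. Cyp8b1 rose 2.61-fold, from 303 ± 74.2 to 791 ± 116 CPM (log2 fold change 1.39 ± 0.22, adjusted p = 0.00227). Cyp7a1, which catalyses the rate-limiting first step, was at 94.6, 104, 56, 106 and 80.4 CPM against 120, 83.1, 252 and 147 CPM. These values overlapped, and its log2 fold change of 0.77 ± 0.54 did not pass (adjusted p = 0.896). Of the 25 bile acid genes tested, 1 was called higher and none lower (all genes: 0.0271% and 0.0135%). At an unadjusted p under 0.05, 2 were higher and 1 lower (all genes: 2.45% and 3.58%), and the median was −0.02. The other gene higher at that level was Abcc3, an exporter of the basolateral membrane (3.65 ± 0.695 and 6.15 ± 0.855 CPM, 0.75 ± 0.29, adjusted p = 0.64), and the lower one was Fgfr4, the receptor for the intestinal hormone that represses bile acid synthesis (52.1 ± 8.05 and 44 ± 3.13 CPM, −0.24 ± 0.09, adjusted p = 0.628).

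The fourth higher gene lies beside Cyp8b1. LOC102551973 (chr8:130554737-130557676, plus strand) starts 4348 bases from it and was picked after its values were seen. It was at 1.07, 0.44, 0.518, 0.584 and 0.675 CPM in LPS and 1.81, 2.38, 2.41 and 1.42 CPM in LPS_EF_PF, which did not overlap. It rose from 0.657 ± 0.246 to 2 ± 0.475 CPM (1.61 ± 0.30, adjusted p = 0.0207), on 85 and 260 read pairs. On the other side of Cyp8b1, 4851 bases away, Ackr2, a scavenging receptor for chemokines, had 2.47 ± 0.461 and 4.4 ± 0.76 CPM (0.84 ± 0.21, adjusted p = 0.226), also without overlap. The counting used no strand information. The call of LOC102551973 was lost in 4 of 9 omissions of single libraries, with adjusted p of up to 0.141 without LPS_EF_PF 4. It was also lost with only the groups compared, limma voom, and log2(TPM + 1) with no filter (up to 0.113), and its difference was 0.74 on the log2(TPM + 1) scale, which understates changes of low genes.

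Cyp2c11, the male-specific testosterone hydroxylase of rat liver (chr1:257676172-258004428, plus strand), was the called gene with the largest decrease. Its level was 899, 994, 338, 720 and 638 CPM in LPS 1 to 5 and 294, 120, 132 and 120 CPM in LPS_EF_PF. The groups did not overlap, and LPS 3 came closest to the treated livers. Cyp2c11 fell from 718 ± 255 to 167 ± 85.3 CPM (−2.11 ± 0.40, adjusted p = 0.0227). LPS alone had already lowered it from 1579 ± 230 CPM in control (−1.14 ± 0.36, adjusted p = 0.0134). In rats without LPS the extracts gave 1341 ± 316 CPM (−0.24 ± 0.36, adjusted p = 0.859), and the interaction was −1.87 ± 0.53 (adjusted p = 0.362). The call was lost in 6 of 9 omissions, with adjusted p of up to 0.21 without LPS_EF_PF 3, and also with only the groups compared and with log2(TPM + 1) and no filter (up to 0.123). The log2 fold change stayed between −2.53 and −1.96. Cyp2c genes are close copies of each other, so counts within the family are uncertain.

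Cyp2c11 was the 1 of 12 male-biased genes tested that was called (all genes: 0.0135% lower). At an unadjusted p under 0.05, 6 of the 12 were lower, Cyp2c11 included, and none higher (all genes: 3.58% lower), and the median was −0.50. Mup5, a major urinary protein, had 514 ± 174 and 151 ± 58 CPM with no overlap (−1.77 ± 0.43, adjusted p = 0.215). Cyp2c13, another male P450, had 1995 ± 590 and 1213 ± 237 CPM (−0.72 ± 0.25, adjusted p = 0.535). Rgn, a calcium-binding protein, had 670 ± 99.9 and 523 ± 78.1 CPM (−0.36 ± 0.14, adjusted p = 0.628). Among 10 female-biased genes none was called. The list had 4 genes higher and none lower at an unadjusted p under 0.05 (all genes: 2.45% higher), with a median of 0.80, and these 4 did not overlap between the groups (all genes: 1.6% higher without overlap). Prlr, the prolactin receptor, was at 2.02, 0.982, 18, 12.3 and 10.3 CPM in LPS and 25.1, 58.8, 43.6 and 36 CPM in LPS_EF_PF (2.23 ± 0.86, adjusted p = 0.628). A1bg, a plasma protein, was at 0.625 ± 0.384 and 2.78 ± 1.6 CPM (2.15 ± 0.73, adjusted p = 0.513). Akr1b7, an aldose reductase, was at 0.129 ± 0.125 and 2.96 ± 1.93 CPM (4.46 ± 1.42, adjusted p = 0.436). The classical female gene Cyp2c12 was at 30.9 and 60.2 CPM and overlapped (0.96 ± 0.76, adjusted p = 0.921). The higher values of the female-biased list were not particular to EF given with PF. In LPS_EF against LPS, 7 of the 10 were higher and none lower at an unadjusted p under 0.05, with none called. In LPS_EF_PF against LPS_EF, 1 was higher and 2 lower at that level. There 8 of the 10 lay below 0 and the median was −0.45. The labels do not state the sex of the rats, and both lists share genes with the drug metabolism lists.

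Hdgf, a growth factor that binds heparin and chromatin (chr2:187274898-187284670, plus strand), had a small decrease with little spread. It was at 61.3, 63.4, 54.6, 69.6 and 59.2 CPM in LPS and 47.6, 44.8, 45.8 and 48.2 CPM in LPS_EF_PF. The groups did not overlap. Hdgf fell from 61.6 ± 5.52 to 46.6 ± 1.6 CPM (−0.40 ± 0.08, adjusted p = 0.0227). Its call was lost in 7 of 9 omissions, with adjusted p of up to 0.175 without LPS_EF_PF 3, and in 5 of 11 other settings, with adjusted p of up to 0.18: total counts as the scaling, only the groups compared, and all 3 fits of log2 TPM.

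The next genes by p did not pass. On the higher side, the 9 genes named by rule had log2 fold changes between 0.26 and 2.14. Gsta3, a glutathione transferase, led them with 1.74, 2.78, 7.96, 3.08 and 5.78 CPM in LPS against 17.1, 21.7, 16.6 and 19.8 CPM (2.14 ± 0.47, adjusted p = 0.141). The groups did not overlap, and LPS 3 was the highest LPS liver. Cemip, which takes part in hyaluronan breakdown, had 4.12 ± 1.2 and 9.34 ± 1.26 CPM (1.18 ± 0.29, adjusted p = 0.215). Rxrg, a retinoid X receptor, had 10.5 ± 2.76 and 16.5 ± 3.35 CPM (0.66 ± 0.18, adjusted p = 0.347), and Sik2, a salt-inducible kinase, had 12.5 ± 1.16 and 18.3 ± 1.51 CPM (0.55 ± 0.15, adjusted p = 0.347). On the lower side, the largest difference was in Lrtm2, a leucine-rich repeat membrane protein, at 27.9, 22.7, 12.3, 20.1 and 12.2 CPM against 4.66, 1.8, 2.69 and 2.17 CPM (−2.76 ± 0.64, adjusted p = 0.151). All 4 treated livers were below all LPS livers. Dhrs7, a dehydrogenase of the endoplasmic reticulum, had 304 ± 72.5 and 119 ± 34.4 CPM without overlap (−1.35 ± 0.31, adjusted p = 0.147). Slc31a2, a copper transporter, had 14.9 ± 0.533 and 11.6 ± 0.729 CPM (−0.36 ± 0.08, adjusted p = 0.147). Acnat2, an acyl-CoA:amino acid N-acyltransferase, had 480 ± 27.4 and 316 ± 32.7 CPM (−0.60 ± 0.14, adjusted p = 0.151).

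Genes of drug metabolism outside the Cyp1a pair had values on both sides. Of 25 CAR and PXR targets tested, none was called, 8 were higher and 1 lower at an unadjusted p under 0.05 (all genes: 2.45% and 3.58%), and the median was 0.18. Without LPS 3 these counts were 8 higher and 4 lower (all genes: 3.37% and 4.31%), and without LPS_EF_PF 4 they were 5 and 1. Cyp2b2, the classical CAR target, had 9.04 CPM on average in LPS and 19.6 CPM in LPS_EF_PF, with no overlap (1.12 ± 0.40, adjusted p = 0.587). Cyp2b1 had 0.959 and 3.17 CPM (1.72 ± 0.79, adjusted p = 0.774). Ces2a, a carboxylesterase, had 75.7 ± 22.7 and 132 ± 33 CPM (0.80 ± 0.25, adjusted p = 0.43). The lower member was Cyp3a18, a steroid hydroxylase, at 425 ± 98.1 and 172 ± 90.3 CPM without overlap (−1.30 ± 0.45, adjusted p = 0.54), and Cyp3a2 had 1175 and 751 CPM (−0.65 ± 0.35, adjusted p = 0.879). Conjugating enzymes had 5 of 28 higher and none lower at the unadjusted level (2 and 1 without LPS_EF_PF 4), among them Ugt2b1, a glucuronosyltransferase, at 34.1 ± 10.2 and 77.6 ± 34.8 CPM (1.19 ± 0.44, adjusted p = 0.612). Within the Cyp2c and steroid list, 6 of 20 were lower and 1 higher. Cyp2c22, which acts on retinoids, had 1136 ± 258 and 723 ± 138 CPM (−0.65 ± 0.19, adjusted p = 0.371), and Hsd11b1, which regenerates corticosterone, had 555 ± 53 and 400 ± 39.8 CPM without overlap (−0.47 ± 0.16, adjusted p = 0.509).

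Aldh1a1, a retinaldehyde dehydrogenase on the CAR and PXR list, was called or not called depending on LPS 3. It was at 13.5, 8.26, 84, 14.6 and 30.1 CPM in LPS 1 to 5 and 80.6, 100, 97 and 104 CPM in LPS_EF_PF. Of the LPS livers, only LPS 3 reached the range of the treated livers. Control livers, with neither LPS nor extract, also varied widely, from 8.78 to 80.4 CPM. With all libraries the log2 fold change was 1.67 ± 0.52 (adjusted p = 0.43). Without LPS 3 Aldh1a1 rose by 2.53 ± 0.49 (adjusted p = 0.0284). The same omission brought Gsta3 (2.50 ± 0.51, adjusted p = 0.0379), Slc25a1, the mitochondrial citrate carrier (−0.66 ± 0.12, adjusted p = 0.0162), Mvk (−0.96 ± 0.20, adjusted p = 0.0396) and Slc16a11, a monocarboxylate transporter (−1.55 ± 0.33, adjusted p = 0.0497) past the threshold. A further 3 loci were also called then, LOC103692052 higher (1.87 ± 0.39, adjusted p = 0.0457), LOC259244 lower (−1.31 ± 0.26, adjusted p = 0.031) and LOC102546393 lower (−1.69 ± 0.36, adjusted p = 0.0465).

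The cholesterol synthesis enzymes had values that went in opposite directions with and without LPS. Without LPS, EF_PF raised the pathway, with 11 of 23 members called higher against control (all genes: 0.446% higher) and a median log2 fold change of 0.96. After LPS the same extracts gave lower values, with 22 of 23 below 0 and a median of −0.53. None of these was called in LPS_EF_PF against LPS, and 16 were lower at an unadjusted p under 0.05 (all genes: 3.58%). That count was 6 without LPS_EF_PF 6 and 7 without LPS 1, and no more than 19 in any omission, with 21 or 22 members below 0 in each. LPS by itself had raised 17 of the 23 against control (all genes: 18.6% higher). The mean CPM in LPS_EF_PF was below that in LPS for 22 members and above that in control for 19.

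The interaction, which asks whether the extract effect differs between rats with and without LPS, was called for 12 of 14786 genes (0.0812%), all of them lower in the LPS arm. Of these, 8 are on the cholesterol list. At an unadjusted p under 0.05, 22 of the 23 members were lower in the interaction (all genes: 2.62%), with a median of −1.52. Msmo1, the sterol C4-methyl oxidase (chr16:26859441-26875880, plus strand), was at 686, 489, 272, 587 and 487 CPM in LPS and 338, 271, 376 and 197 CPM in LPS_EF_PF. The groups overlapped through LPS 3, which had the lowest value of its group. Control was at 128 ± 25.9 and EF_PF at 350 ± 64.2 CPM, a rise of 1.45 ± 0.29 (adjusted p = 0.00985), against −0.77 ± 0.31 in the LPS arm (adjusted p = 0.661). The interaction was −2.22 ± 0.43 (adjusted p = 0.0257).

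Hmgcs1, an early enzyme of the pathway (chr2:52427351-52445082, plus strand), had 1626, 1271, 894, 1651 and 1626 CPM in LPS and 984, 984, 1277 and 677 CPM in LPS_EF_PF, again with LPS 3 lowest in its group. It rose from 481 ± 73.6 to 1285 ± 173 CPM without LPS, and its interaction was −1.95 ± 0.38 (adjusted p = 0.0257). Mvk, mevalonate kinase (chr12:47904266-47920457, minus strand), had 55.7, 37.7, 23, 40.4 and 34 CPM in LPS and 20.2, 21.4, 27.4 and 17 CPM in LPS_EF_PF. The groups overlapped only at LPS 3. Its log2 fold change was −0.83 ± 0.21 with all libraries (adjusted p = 0.224), and its interaction was −1.42 ± 0.28 (adjusted p = 0.0257). Acat2, which joins acetyl-CoA units at the start of the pathway, had the largest interaction, −2.48 ± 0.46 (adjusted p = 0.0257), with 50.2 ± 18.3 CPM in LPS, 22.5 ± 7.56 in LPS_EF_PF, 13.5 ± 3.29 in control and 33.7 ± 7.06 in EF_PF. Its neighbour Acat2l1, an Acat2-like gene with which reads could be shared, was called as well (−2.03 ± 0.40, adjusted p = 0.0257).

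Members called as well were Mvd (−2.26 ± 0.42), Sqle (−2.02 ± 0.40) and Pmvk (−1.39 ± 0.27), each with adjusted p = 0.0257. They act at the decarboxylation of mevalonate diphosphate, the epoxidation of squalene and the second phosphorylation of mevalonate. Outside the list, and named after their values were seen, were Mmab, an adenosyltransferase of vitamin B12 that lies head to head with Mvk (−1.42 ± 0.27, adjusted p = 0.0257), LOC102550763, which lies next to Sqle (−1.98 ± 0.40, adjusted p = 0.0299), and Srebf2 (−0.86 ± 0.18, adjusted p = 0.0379). Srebf2 rose without LPS from 46.5 ± 6.59 to 81.1 ± 4.99 CPM (0.80 ± 0.12, adjusted p = 0.000378). After LPS it was at 78.8 ± 11.5 CPM without and 75.9 ± 6.67 CPM with the extracts (−0.05 ± 0.13, adjusted p = 0.985). All 12 genes were below 0 in the LPS arm and above 0 in the arm without LPS. These calls rest on the full set of libraries. No gene was called without control 4, control 6, EF_PF 1, LPS 1, LPS 4 or LPS_EF_PF 1, 3 or 6, which are 8 of 19 omissions, and the adjusted p of the 12 genes reached 0.128. Without LPS 3, 25 were called, all lower and including the 12. Without EF_PF 2, 5 were called, and without LPS_EF_PF 4, 19. In those 19 omissions 22 or 23 of the 23 members stayed below 0 in the interaction, with medians between −1.66 and −1.35. Control 5 held 3764 CPM of pancreas markers, against 9.87 to 15.2 in the other 4 control livers, and without it 9 genes were called, all of them among the 12.

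**Figure D4:**
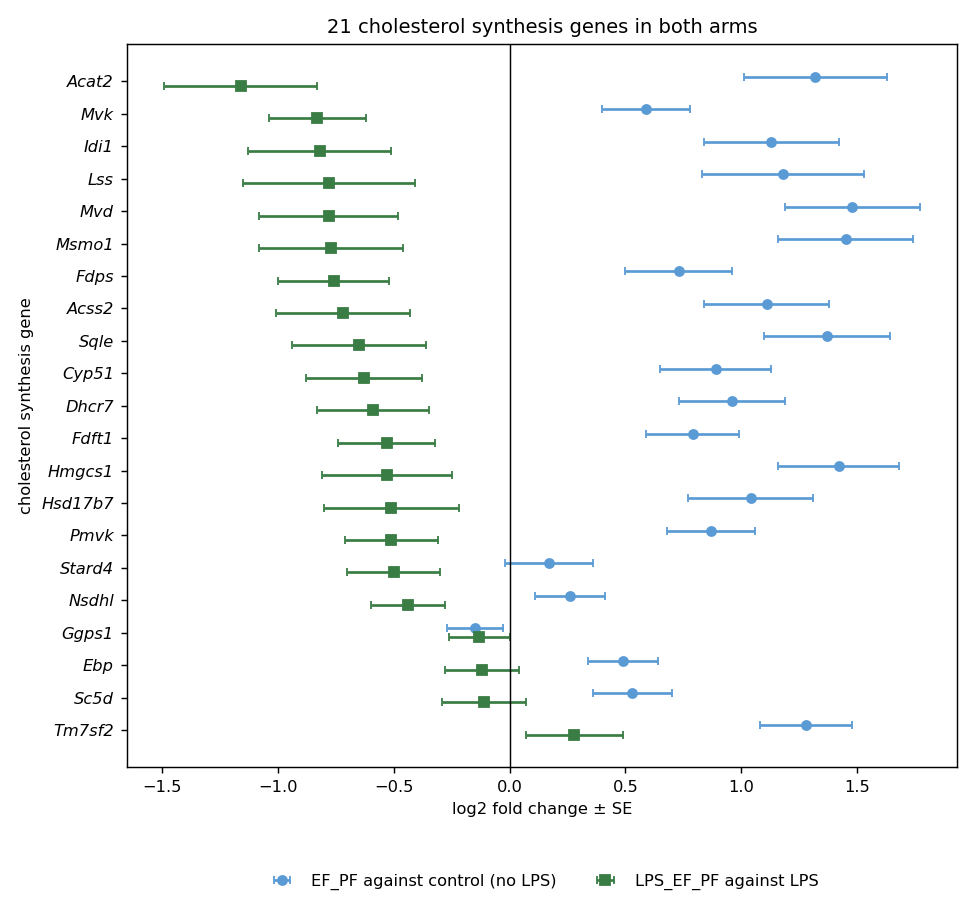
Log2 fold change ± SE of 21 of the 23 cholesterol synthesis genes in EF_PF against control (circles) and LPS_EF_PF against LPS (squares). The circles lie above 0 for 20 of these and the squares below 0 for 20, with medians of 0.96 and −0.59.

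The promoters of 3 of these enzymes are shown because the genes moved together and carry the same short motif, CCAAT, the box bound by the factor NF-Y (RefSeq, GRCr8, 250 bases before the start, read along the gene, with CCAAT or its reverse complement ATTGG in capitals). Mvk lies at chr12:47819504-47819753 on the minus strand, Msmo1 at chr16:29746863-29747112 on the plus strand and Hmgcs1 at chr2:53382054-53382303 on the plus strand.
Mvk: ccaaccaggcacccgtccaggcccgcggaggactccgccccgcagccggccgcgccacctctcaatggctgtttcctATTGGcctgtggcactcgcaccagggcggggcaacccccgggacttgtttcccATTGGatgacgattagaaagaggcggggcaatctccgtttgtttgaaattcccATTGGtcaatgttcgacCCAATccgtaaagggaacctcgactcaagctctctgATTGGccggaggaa
Msmo1: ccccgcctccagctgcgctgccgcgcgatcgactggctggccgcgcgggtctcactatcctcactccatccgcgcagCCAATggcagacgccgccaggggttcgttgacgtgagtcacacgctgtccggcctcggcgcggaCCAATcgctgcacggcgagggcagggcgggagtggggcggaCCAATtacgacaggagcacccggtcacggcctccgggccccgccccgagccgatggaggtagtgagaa
Hmgcs1: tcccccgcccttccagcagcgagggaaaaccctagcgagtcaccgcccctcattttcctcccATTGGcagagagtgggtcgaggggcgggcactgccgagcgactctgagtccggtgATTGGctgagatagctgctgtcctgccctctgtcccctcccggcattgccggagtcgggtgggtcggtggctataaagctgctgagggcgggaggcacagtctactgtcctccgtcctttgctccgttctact
The motif has 5 copies in Mvk, 3 in Msmo1 and 2 in Hmgcs1, none overlapping. It occurs in 14 of the 17 cholesterol members that the promoter table holds and in 34% of all 33469 rat promoters of this length. Mvk and Mmab start 253 bases apart on opposite strands in GRCr8, so the Mvk window shown lies between the 2 starts. A match is a description of the letters and was not tested for binding.

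Genes that regulate cholesterol uptake and export were mixed. Of 21 tested, none was called, 2 were higher and 4 lower at an unadjusted p under 0.05 (all genes: 2.45% and 3.58%), and the median was −0.04. The 4 lower became 2 without LPS 5 or LPS_EF_PF 6. Insig1, which holds SREBP2 in the endoplasmic reticulum, had 334 ± 178 and 175 ± 39.3 CPM (−0.93 ± 0.31, adjusted p = 0.491). Abcg8, which exports sterols into bile, had 12.9 ± 5.77 and 32.2 ± 7.44 CPM without overlap (1.32 ± 0.49, adjusted p = 0.612).

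Fatty acid synthesis genes had lower values in LPS_EF_PF, with no gene called. Of 26 tested, 11 were lower and none higher at an unadjusted p under 0.05 (all genes: 3.58% lower), and the median was −0.60. Scd, the stearoyl-CoA desaturase (chr1:264159966-264173061, minus strand), had the largest difference, with 530, 1044, 333, 648 and 783 CPM in LPS and 68, 275, 29.5 and 37.5 CPM in LPS_EF_PF. The groups did not overlap, and LPS_EF_PF 3 was well above the other treated livers (−2.70 ± 0.72, adjusted p = 0.282). Fasn, fatty acid synthase, had 226 and 103 CPM (−1.13 ± 0.42, adjusted p = 0.612), and Acly, ATP citrate lyase, had 227 and 124 CPM without overlap (−0.87 ± 0.33, adjusted p = 0.628). The desaturases Fads1 and Fads2 were at 443 ± 143 and 269 ± 38 CPM (−0.72 ± 0.26, adjusted p = 0.607) and at 288 ± 73.7 and 155 ± 46.6 CPM (−0.89 ± 0.30, adjusted p = 0.491). The transcription factor gene Srebf1 had 114 and 81.4 CPM (−0.49 ± 0.35, adjusted p = 0.896). Without LPS_EF_PF 6 only 5 of the 26 were lower at that level. Without LPS 3, 1 of the 26 was called lower, which was Slc25a1, and 14 were lower at the unadjusted level (all genes: 4.31%). In EF_PF against control the list had 3 higher and 2 lower at that level (all genes: 5.8% and 6.75%) and a median of 0.16.

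Fatty acid oxidation genes controlled by PPAR-alpha had 2 of 36 higher and none lower at an unadjusted p under 0.05 (all genes: 2.45% and 3.58%), none called, and a median of 0.18. None was higher at that level without LPS 2, LPS 4 or LPS_EF_PF 3, 4 or 6, and 1 was without LPS 1. Eci1, an isomerase of unsaturated fatty acids, had 40.7 ± 10.9 and 62.3 ± 13.2 CPM (0.62 ± 0.30, adjusted p = 0.826). Creb3l3, a liver transcription factor induced by fasting, had 258 ± 18.9 and 312 ± 20.9 CPM without overlap (0.27 ± 0.13, adjusted p = 0.826). Without LPS 3, 8 were higher at the unadjusted level (all genes: 3.37%).

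The inflammatory response was not detectably different between the groups at the level of single genes. Of 28 acute-phase genes tested, none was called, 1 was lower at an unadjusted p under 0.05 (all genes: 3.58%) and 23 lay below 0, with a median of −0.17. Without LPS 1 the direction turned, with 17 above 0, 11 below and a median of 0.03. LPS against control had called 19 of the same 28 higher (all genes: 18.6%). A2m, the alpha-2-macroglobulin of the rat acute phase, was at 344, 210, 124, 156 and 192 CPM in LPS and 167, 86.7, 141 and 86.7 CPM in LPS_EF_PF (−0.77 ± 0.75, adjusted p = 0.949). The groups overlapped, and the approximate 95% interval from the SE ran from −2.25 to 0.71. Lbp, the LPS-binding protein, was at 2854 ± 576 and 2706 ± 220 CPM (−0.08 ± 0.50, interval −1.06 to 0.90, adjusted p = 0.994). Its livers ran from 2288 to 3795 CPM in LPS and from 2433 to 2971 CPM in LPS_EF_PF. The SEs of A2m and Lbp draw on the spread in all 8 groups of the fit, not only in the groups compared. That spread includes LPS_EF 7, where A2m was at 5.84 CPM and Lbp at 252 CPM. Haptoglobin, Hp, was at 30830, 14628, 16880, 15826 and 15786 CPM in LPS and between 14002 and 17063 CPM in LPS_EF_PF (−0.30 ± 0.21, interval −0.70 to 0.11, adjusted p = 0.894). LPS 1 was far above the other 8 livers.

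Lcn2, an iron-sequestering protein of neutrophils and injured hepatocytes, split both groups. It was at 2060, 27, 2271, 26.8 and 955 CPM in LPS 1 to 5 and 36.4, 30.4, 34.5 and 1085 CPM in LPS_EF_PF 1, 3, 4 and 6. In all, 3 of 5 LPS livers and 1 of 4 treated livers were high, and the log2 fold change of −1.85 ± 1.47 did not pass (adjusted p = 0.922). Hamp, the iron hormone hepcidin, was at 139, 314, 159, 246 and 35.2 CPM against 8.36, 89.6, 170 and 17.7 CPM (−1.32 ± 0.62, adjusted p = 0.806). Cd14, the LPS co-receptor, was at 107 ± 19.9 and 75.5 ± 6.49 CPM without overlap (−0.51 ± 0.25, adjusted p = 0.839). Mt2A, a metallothionein that also rises in the acute phase, was at 149 ± 31.4 and 154 ± 51.4 CPM (0.05 ± 0.52, adjusted p = 0.996), with a sign that changed between settings.

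**Figure D5:**
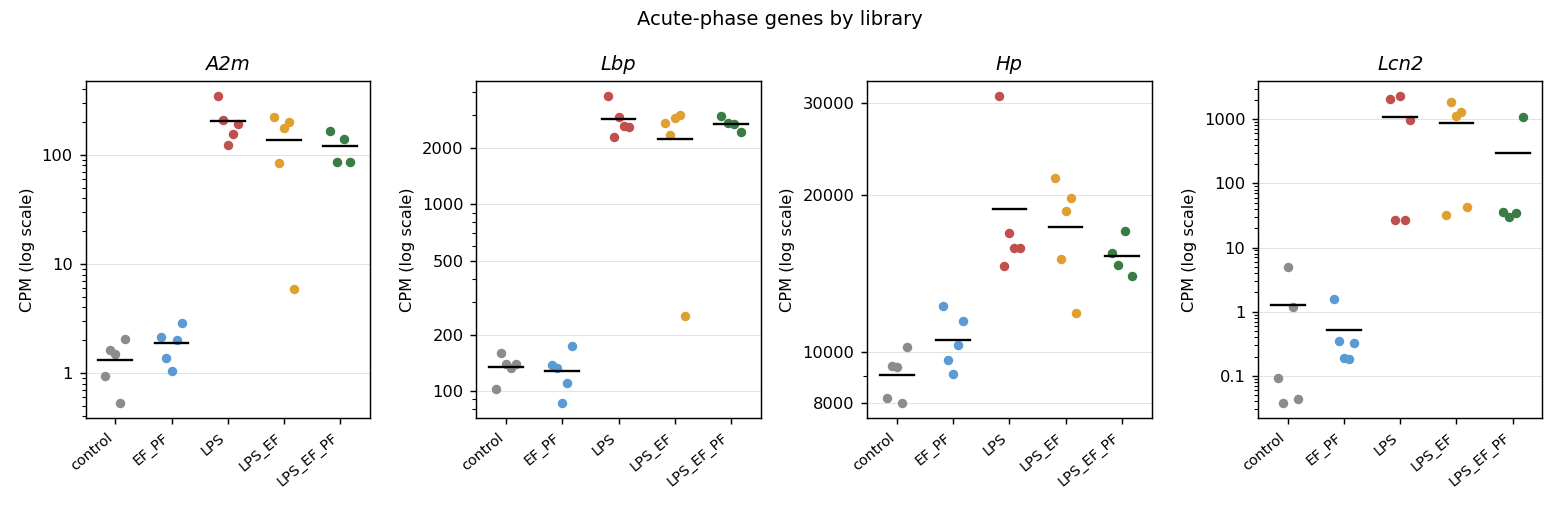
CPM (log axis) of 4 acute-phase genes in each library of 5 groups, with the group mean as a bar. LPS and LPS_EF_PF overlap for every gene shown, and 1 LPS_EF liver lies near the control level for A2m and Lbp. Lcn2 has high and low livers within each LPS-injected group, with 1 high liver in LPS_EF_PF.

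Among 30 cytokines and chemokines, 1 was higher at an unadjusted p under 0.05 (all genes: 2.45%), Ccl5, a chemoattractant of T cells, at 2.9 ± 0.562 and 5.18 ± 2.97 CPM (0.83 ± 0.28, adjusted p = 0.513). Of 34 interferon-stimulated genes 1 was higher, Gbp5, a guanylate-binding protein, at 3.21 ± 0.43 and 4.8 ± 0.447 CPM (0.58 ± 0.26, adjusted p = 0.747). The 21 neutrophil and monocyte genes had none past that level and a median of 0.18. Siglec10, an inhibitory lectin of myeloid cells, was at 8.98 ± 1.95 and 13.4 ± 2.3 CPM (0.58 ± 0.40, adjusted p = 0.893). Kupffer cell and macrophage genes had 19 of 20 above 0 with a median of 0.24 and none past the unadjusted level. None of the 20 was free of overlap between the groups (all genes: 1.6% higher without overlap), although the summed level of 7 markers was. The part of macrophage content in the other results was not tested.

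Mitochondrially encoded genes had higher values in LPS_EF_PF. Of 13 tested, none was called, 8 were higher and none lower at an unadjusted p under 0.05 (all genes: 2.45% higher), all 13 lay above 0 and the median was 0.37. Without LPS_EF_PF 3, 4 were higher at that level and the median was 0.27. Their share of all counts was 3.08% to 3.79% in LPS and 3.87% to 4.21% in LPS_EF_PF, with no overlap. ATP8, a subunit of ATP synthase, was at 77.6, 90, 87, 77.9 and 87.7 CPM in LPS and 109, 137, 105 and 114 CPM in LPS_EF_PF (0.47 ± 0.12, adjusted p = 0.224). ND4L, a subunit of complex I, was at 161 ± 17.9 and 251 ± 77.1 CPM (0.65 ± 0.20, adjusted p = 0.436). COX1, the most abundant member, was at 17194 and 17756 CPM (0.05 ± 0.10, adjusted p = 0.982). The higher values were not particular to this comparison. The list had 12 of 13 above 0 in EF_PF against control (median 0.22) and in LPS_EF against LPS (median 0.13). ATP8 was called in EF_PF against control (0.47 ± 0.11, adjusted p = 0.0369), and its interaction was 0.00 ± 0.16. The part of the mitochondrial share of counts in the other results was not tested.

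What PF added to EF after LPS was asked by setting LPS_EF_PF against LPS_EF. Cyp1a1 was the 1 gene of 14786 (0.00676%) that was called. It was at 0.933, 3.07, 2.61, 4.18 and 5.35 CPM in LPS_EF 3 to 7 and at 39.5, 41.1, 39.1 and 78.1 CPM in LPS_EF_PF, with no overlap (3.93 ± 0.54, adjusted p = 0.000365). DESeq2 gave Cyp1a1 no adjusted p here, so it is not among the genes that tool called (log2 fold change 3.95, unadjusted p = 1.24e-10). EF alone gave Cyp1a1 a log2 fold change of 2.43 ± 0.64 over LPS that did not pass (adjusted p = 0.125). Cyp1a2 and Cyp8b1 did not differ beyond the spread between LPS_EF_PF and LPS_EF, at 0.40 ± 0.26 (adjusted p = 0.706) and −0.35 ± 0.22 (adjusted p = 0.693). The comparisons of LPS_EF and LPS_EF_PF with LPS share the LPS livers. In LPS_EF against LPS, Cyp1a2 rose by 1.25 ± 0.25 (adjusted p = 0.0436), Cyp8b1 by 1.74 ± 0.21 (adjusted p = 2.7e-05) and LOC102551973 by 1.52 ± 0.29 (adjusted p = 0.0382). Cyp1a2 was at 1420 CPM in LPS_EF 7 and at 761 to 933 CPM in the other livers of that group. LPS_EF against LPS was not fitted again with single libraries left out or in other settings. Cyp2c11 had −1.06 ± 0.36 (adjusted p = 0.267) there and −1.05 ± 0.39 (adjusted p = 0.548) in LPS_EF_PF against LPS_EF.

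For fatty acid oxidation, the PPAR-alpha list had 3 of 36 called higher in LPS_EF against LPS (all genes: 0.0744%), with a median of 0.49, against none and 0.18 in LPS_EF_PF against LPS. In LPS_EF_PF against LPS_EF all 36 lay below 0, 15 were lower at an unadjusted p under 0.05 (all genes: 4.92%) and none was called, with a median of −0.35. Other hepatocyte genes also lay below 0 in this comparison. General hepatocyte markers had 18 of 20 below 0, 8 lower at that level and a median of −0.21, gluconeogenesis and amino acid genes had 10 of 34 lower, and complement and coagulation genes had 33 of 38 below 0. Neutrophil and monocyte genes had 19 of 21 above 0. The part of these in the fatty acid oxidation values was not tested. Decr1, a reductase of unsaturated fatty acid oxidation, was at 80.9 ± 17.5 CPM in LPS, 131 ± 13.3 in LPS_EF and 97.7 ± 13.4 in LPS_EF_PF. LPS_EF 7 stood apart in its group, with A2m at 5.84 CPM and Lbp at 252 CPM where the other 4 LPS_EF livers had at least 84.2 and 2352 CPM. Without it Cyp1a1 stayed the 1 called gene in LPS_EF_PF against LPS_EF (4.19 ± 0.60, adjusted p = 0.000885). The PPAR-alpha list then had 10 lower at the unadjusted level and a median of −0.28. LPS_EF against LPS was not fitted without LPS_EF 7, so the 3 calls and the median of 0.49 were not checked for that liver. In LPS against control the same list had a median of −0.61.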

How the data were processed

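The deposited counts are whole read pairs per gene name, made by the authors with featureCounts on an rn6 RefSeq annotation, per the file headers, which show neither a strand nor a multi-mapping option. STAR and RSEM appear in the submitters' processing notes too, and so does mRatBN7.2 as the build. Positions are those of the deposited count table and are given as rn6, and promoters are from RefSeq, GRCr8. The deposited TPM values matched TPM recomputed from the counts to within 0.0495% over 432813 values of 1 TPM or more, and were used only in alternative fits. Of 31038 genes, 7071 had 0 counts in every library, and 18 names lie on 2 or more chromosomes. The protocols mention no molecular identifiers, and read pairs can be copies of 1 molecule. P-values of the fit set a difference against the spread between samples, which was estimated over all 8 groups.

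Counts were tested with edgeR 4.0.16 (R 4.3.3) by the quasi-likelihood F-test, with 8 group means fitted to all 38 libraries, TMM scaling and filterByExpr (minimum count 10, minimum total 15), which left 14786 genes. P-values are two-sided and Benjamini-Hochberg adjusted over all genes tested within a comparison, and genes were called under 0.05. The SE of a log2 fold change is its size divided by the root of F. CPM are TMM-scaled counts. The fit was tested on simulated data. Alternatives were other scalings, filters, DESeq2 1.42.0, limma 3.58.1 (voom and log2 TPM), a replicate block, a fit of only the groups compared, and omission of each library.

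Named genes were all called ones with at least 2 CPM and a proper symbol, filled up to 12 per direction by smallest p, up to 4 members of each list described, and a fixed set that included A2m and Cyp7a1. Other list members named for context (such as Ahr, Cyp2b2, Fasn and Acly) and the genes outside the naming rule (LOC102551973, Mmab, Srebf2, LOC102550763, Acat2l1, Sqle and Pmvk) were chosen after their values were seen. Members and the 49 lists were chosen with earlier results of these data known. Same-numbered LPS and LPS_EF_PF libraries were not treated as pairs in the main fit. Some measured genes are counted in the lists but not reported here by name.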

Additional observations from a re-analysis of the deposited data

Results flagged for a closer look

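A sample counted as far from the others when its gap to the nearest value exceeded Dixon's 95% limit for its group. Chance marks about 1 in 20 of independent groups of values. Here 28 of 218 were marked, 14 of them for LPS 3. The groups of values share libraries, and summed lists hold some of the single genes. Pancreas and muscle RNA in LPS 3 was also known beforehand, so the count is not a test against chance.

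LPS 3 was high for pancreas genes, with Cel at 273 CPM, Cpb1 at 165, Cpa1 at 140 and Ctrb1 at 166 CPM, where the other LPS livers had 0.234 CPM or less. It was high for muscle genes, with Atp2a1 at 44.7 CPM, Tnnt3 at 28.8, Tnnc1 at 6.18 and Ttn at 25.3 CPM. Its summed markers were 2140 CPM for pancreas, 584 CPM for muscle and 17.7 CPM for intestine, kidney and fat. The same library was low for Slc25a1 (105 CPM, others 160 to 166) and Rgn (492 CPM, others 697 to 727), and high for Aldh1a1 (84 CPM, others 8.26 to 30.1).

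Among the treated livers, LPS_EF_PF 6 was high for Cyp1a1 (78.1 CPM, others 39.1 to 41.1), Cyp1a2 (1532 CPM, others 1155 to 1174), Ugt2a3 (75.4 CPM, others 39.3 to 44.5), Lcn2 (1085 CPM, others 30.4 to 36.4) and Ctrb1 (0.356 CPM, others up to 0.0402), and low for Ackr2 (3.27 CPM, others 4.62 to 4.87). LPS_EF_PF 1 was high for Cyp2c11 (294 CPM, others 120 to 132), Rgn (639 CPM, others 472 to 493) and Gc (12028 CPM, others 10269 to 10528). LPS_EF_PF 3 was high for Scd (275 CPM, others 29.5 to 68) and low for Hsd11b1 (341 CPM, others 414 to 423). In LPS, replicate 1 was high for Hp (30830 CPM, others 14628 to 16880), replicate 2 was low for Ackr2 (1.66 CPM, others 2.61 to 2.81) and replicate 5 was high for summed red blood cell markers (2177 CPM, others 323 to 702).

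The effect of EF and PF differed between rats with and without LPS, by the test of that difference, for 12 genes. Among these, the differences in log2 fold change were −2.48 for Acat2, −2.26 for Mvd, −2.22 for Msmo1, −2.03 for Acat2l1, −2.02 for Sqle, −1.98 for LOC102550763, −1.95 for Hmgcs1, −1.42 for Mvk, −1.42 for Mmab, −1.39 for Pmvk and −0.86 for Srebf2.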

How the results depend on the processing

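Cyp1a1, Cyp1a2 and Cyp8b1 kept their call in LPS_EF_PF against LPS in all 9 omissions and all 11 other settings tried. The 6 calls of that comparison became 32 with DESeq2 (11 higher, 21 lower, including the 6) and 43 (20 higher, 23 lower) with only the groups compared and no LPS 3, an alternative chosen after seeing the data. The lower calls of DESeq2 included the fat genes Adipoq and Plin1, which were at 1.04 and 0.37 CPM in LPS 3. Their LPS means without LPS 3 were 0.0203 and 0 CPM, and both were at 0 in LPS_EF_PF, so these calls rest on LPS 3. DESeq2 was not run without LPS 3. With only the groups compared in edgeR, 7 were called and 3 of the 6 were among them. The count of lower genes was 1 with total counts as scaling and 1 with log2(TPM + 1) and no filter. Leaving out single libraries gave 3 to 14 calls, 3 to 7 higher and 0 to 7 lower. The interaction's 12 calls became 27 with only the groups compared and 32 with DESeq2, and 0 to 25 without single libraries. LPS_EF_PF against LPS_EF had 2 calls with only the groups compared, 11 with log2(TPM + 1) and no filter, 15 with DESeq2, none of them Cyp1a1, and 1 to 2 without single libraries. The cause of these shifts was not tested.

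The replicate block gave 7 calls in LPS_EF_PF against LPS, 0 in the interaction and 1 against LPS_EF. Same-numbered libraries had correlations of −0.0193, 0.0546 and 0.238, and not every one correlated best with its own. So few correlations cannot show whether the number marks a shared factor.

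Signs turned without LPS 3, where the log2 fold change of Cel was 0.14 (lowest −10.26), Cpb1 1.32 (−8.65), Cpa1 1.33 (−9.29), Ctrb1 0.20 (−11.09), Tnnt3 0.04 (−4.58) and Ttn 0.04 (−3.25), or 0.05 for Ttn with only the groups compared as well. The summed difference was then 1.35 CPM for muscle and 3.02 CPM for pancreas. Lbp ran from −0.14 to 0.06 (without LPS 1) and Srebf2 from −0.13 to 0.01 (without LPS 2). Mt2A ran from −0.08 (without LPS_EF_PF 3) to 0.26, with −0.05 under the block, −0.01 with limma voom and −0.07 with only the groups compared and no LPS 3. Atp2a1 was too low to be tested without LPS 3. With 4 and 5 livers a group, genes with wide spread between livers, such as Lcn2, had intervals too wide to show a change.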

Other observations

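Genes of the circadian clock had 2 of 19 lower and none higher at an unadjusted p under 0.05 (all genes: 3.58% and 2.45%), none called, and a median log2 fold change of −0.52. Lymphocyte genes lay above 0 in 19 of 19 with a median of 0.40 and none past that level. Red blood cell genes lay above 0 in 11 of 11 with a median of 1.24, and 1 was higher at the unadjusted level (all genes: 2.45%). Cytosolic ribosomal protein genes had 63 of 70 above 0, with a median of 0.12 and 2 higher at that level. Complement and coagulation genes had 27 of 38 below 0 with a median of −0.07 and none past it.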
